A study of Mus musculus with 13 samples.

Results

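Border-associated macrophages were examined in droplet single-nucleus RNA data from the whole frozen hippocampus of 13 female mice. They were taken as barcodes with at least 500 detected genes and at most 5% mitochondrial UMIs in which at least 2 of the genes Mrc1, F13a1 and Cd163 were detected, with a sum of at least 3 UMIs (unique molecular identifiers, counted RNA molecules) and at least 15 per 10000 UMIs of the barcode. This gave 143 of 105427 retained nuclei, or 0.136%. All mice were of a C3H and B6 hybrid strain that the labels spell C3HB6F1 for the samples and C3B6F1 for the series. Free access to food (ad libitum) was given to 3 young mice, aged 5 months, and to 3 old mice, aged 24 months and numbered 1, 2 and 4. Food was restricted in 2 further groups, also aged 24 months: in acute restriction (n = 3) this began at 20 months, and in long-term restriction (n = 4) at 5 months. The design asks how age, and restriction begun late or early, change the nuclei of the hippocampus. Each library is 1 sample, and p-values measure the spread between these samples.

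Border-associated macrophages are the resident macrophages of the meninges, the spaces around vessels and the choroid plexus. They share the CSF1 receptor lineage with microglia, the macrophages within the brain tissue, but line its borders, where they take up proteins, lipids and debris from the fluid through scavenger receptors. Subsets along vessels and in the inner meninges are known for the hyaluronan receptor Lyve1, and others for MHC class II molecules, which present antigen to T cells. A hippocampal dissection holds them only as far as it carries vessels, meninges or choroid plexus.

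The 3 genes of the rule define the nuclei and are described here without a test. Mrc1 (the mannose receptor CD206, chromosome 2, 14229392 to 14332057, plus strand, GRCm38 in GENCODE vM21) had 1141 UMIs in 140 of the 143 nuclei. F13a1 (coagulation factor XIII A subunit, chromosome 13, 36867178 to 37050244, minus strand) had 1625 UMIs in 142. Cd163 (the haemoglobin-haptoglobin receptor, chromosome 6, 124304656 to 124330527, plus strand) had 269 UMIs in 93. All 3 genes were detected in 89 nuclei, Mrc1 with F13a1 alone in 50, F13a1 with Cd163 alone in 3 and Mrc1 with Cd163 alone in 1. The sum of the 3 genes was 3 to 86 UMIs per nucleus (median 17) and 15.1 to 315 per 10000 UMIs (median 98.6). Only 3 members lay between 15 and 20 per 10000. Just outside, 22 barcodes with at least 2 of the genes and at least 3 UMIs lay at 1.29 to 12.6 per 10000, with a median of 10955.5 UMIs per barcode. Another 45 barcodes had 2 genes with a sum of only 2 UMIs.

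The promoters of these genes show the reference sequence from which the transcripts that define the class start. The 250 bases before the annotated start are printed 5′ to 3′ on the gene's strand, from RefSeq on GRCm38.p6, with the purine-rich core of sites for PU.1 (GAGGAA, or TTCCTC on the other strand) in capitals. PU.1, encoded by Spi1, is the transcription factor that macrophages of all tissues need. Mrc1 lies at chr2:14229164-14229413, F13a1 (the upstream of its annotated starts) at chr13:37050245-37050494 and Cd163 at chr6:124304401-124304650.
Mrc1: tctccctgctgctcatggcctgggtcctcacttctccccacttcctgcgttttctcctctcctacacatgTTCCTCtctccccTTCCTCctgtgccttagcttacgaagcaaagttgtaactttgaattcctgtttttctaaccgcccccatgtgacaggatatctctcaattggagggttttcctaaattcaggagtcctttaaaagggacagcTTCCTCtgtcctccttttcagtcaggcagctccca
F13a1: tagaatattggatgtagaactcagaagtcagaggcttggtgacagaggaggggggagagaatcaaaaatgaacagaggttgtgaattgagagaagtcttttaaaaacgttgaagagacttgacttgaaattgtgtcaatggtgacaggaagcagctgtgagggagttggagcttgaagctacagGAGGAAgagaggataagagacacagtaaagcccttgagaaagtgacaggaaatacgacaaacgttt
Cd163: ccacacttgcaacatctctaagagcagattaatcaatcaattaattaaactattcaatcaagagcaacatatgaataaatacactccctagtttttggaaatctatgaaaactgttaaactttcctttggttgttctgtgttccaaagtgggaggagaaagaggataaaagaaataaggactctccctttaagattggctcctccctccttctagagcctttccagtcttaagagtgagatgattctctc
The core occurred 3 times before Mrc1, once before this start of F13a1 and neither in this window of Cd163 nor before the other annotated start of F13a1 (chr13:37049214-37049463, not printed). It occurred in 23.3% of all 32851 promoter windows of this length, in 24.6% of the 1543 windows of the genes tested against microglia further on, in 31.3% of the 297 windows of genes called higher in the macrophages and in 23.1% of the 346 windows of genes called lower. The half-site of MAF (TGCTGA, or TCAGCA on the other strand) was in 0 of these 4 windows, in 16.1% of all windows, 13.5% of those of the genes tested, 15.5% of those called higher and 13.01% of those called lower. These shares describe letters in the windows, and were not tested. Of the 1360 genes tested, 1078 matched a window by symbol.

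Libraries held 38546292 to 80538090 UMIs and 3516 to 12336 retained nuclei, and the macrophages had a median of 1622 UMIs and 1112 genes per nucleus, against 6274 UMIs over all retained nuclei. The 4 libraries numbered 1, with 1 in each group, included those with the largest share of fibroblasts of each old group, and the differences in share are also given without them. Barcode sequences found in more than 1 library numbered 1351 of 104066. No sequence was shared between 2 members, and 4 members carried a sequence also seen in another library.

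The label was checked against markers that the rule did not use. All 11 other genes of the border-associated macrophage list were detected. Stab1 was found in 131 of 143 nuclei, Dab2 in 131, Maf in 111, Ms4a7 in 66, Cd209f in 44, Siglec1 in 41, Cbr2 in 34, Lyve1 in 33, Clec10a in 31, Folr2 in 22 and Pf4 in 19. All 12 pan-macrophage markers were present, with Csf1r in 100 nuclei and Ptprc (CD45) in 83. Of 8 monocyte genes 5 were at 0, among them Ccr2 and Ly6c2, and the list had 20 UMIs in 4 nuclei (54.3 CPM against 29.3 in microglia), 18 of them of Vcan in 2 nuclei. Also at 0 were 7 of 8 T or NK cell genes, the B cell genes Cd79a, Cd79b and Pax5 and 4 of 8 fibroblast genes. Bank1, a scaffold protein best known from B cells, was an exception with 371 UMIs in 121 nuclei. The 11 markers outside the rule summed to 5512 CPM (counts scaled to 1000000 UMIs per class or sum) in the macrophages, 711 in microglia, 1.88 in granule neurons and 786 in fibroblasts. Of 7 dendritic cell genes 4 were at 0, and the list had 52 UMIs in 35 nuclei (141 CPM against 45.03 in microglia). The fibroblast list had 29 UMIs in 14 nuclei (78.7 CPM against 158 in microglia), 12 of them in 1 nucleus of long-term restriction replicate 1. The oligodendrocyte list had 197 UMIs in 49 nuclei, the astrocyte list 162 in 45 and the oligodendrocyte precursor list 108 in 12, with 58 and 36 of the last in 2 nuclei. Vcan is on the precursor list as well as the monocyte list, and these were the same 2 nuclei that held its UMIs. Genes of the microglia list, the nearest class, were also present, with 355 UMIs in 110 nuclei (963 CPM against 7030 in microglia). The rule for microglia used 4 of its 12 genes. P2ry12 was in 49.0% and Siglech in 31.5% of the macrophages, against 83.7% and 86.7% of microglia and 24.7% and 0 of granule nuclei. The label was kept.

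Neuronal transcripts set a few nuclei apart. In 14 of the 143 nuclei, 8 pan-neuronal genes (among them Snap25, Syt1 and Rbfox3) took 57.2 to 169.3 per 10000 UMIs, and the next nucleus was at 46.8. The median was 12.7 in the macrophages, 12.7 in microglia and 89.5 in dentate granule neurons. In summed counts, which the gene tests use, the 8 genes were at 3960 CPM in the macrophages and 1570 in microglia. A further feature moved with these nuclei: 10 of the 14 were among the 14 members marked as doublets. These marks went to the highest Scrublet scores of each library, at a preset rate. Together, 18 nuclei were marked by either measure, and with a median of 6935 UMIs against 1547 in the other 125 they held 39.5% of all UMIs of the class. They were 12.6% of the macrophages, and the same measures marked 3.61% of microglia. Nuclei with high neuronal counts numbered 1 to 6 in each of acute restriction replicates 1 and 3, long-term restriction replicates 1 and 2, and young replicates 1 and 3, and 0 in old ad libitum mice. One nucleus of old ad libitum replicate 1, with 12960 UMIs, held 152 of the 154 UMIs of the endothelial list and 34 of the 37 of the mural list over all members. A nucleus of long-term restriction replicate 2, with 4639 UMIs, held 36 of the 108 UMIs of the oligodendrocyte precursor list. Both of these nuclei stayed among the 125. Gene results are given for all members and, where a call differs, for the 125. The part of these nuclei in the results was not tested otherwise.

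**Figure D1:**
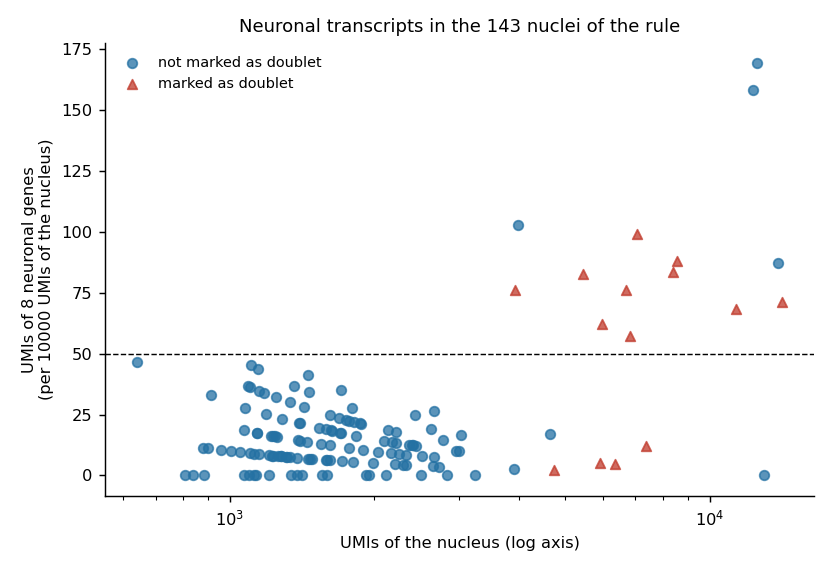
Each point is 1 of the 143 nuclei, with its UMIs on a log axis and the UMIs of 8 neuronal genes per 10000 UMIs; triangles were marked as doublets and the dashed line is at 50. The 14 nuclei above the line lie between 57.2 and 169.3, apart from the others at 46.8 or less.

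Macrophages were few in every mouse, and their share differed more between mice of a group than between groups. Young mice held 3 of 8257, 3 of 9950 and 13 of 7922 nuclei, or 0.0363%, 0.0302% and 0.164%. Old ad libitum mice held 12 of 3516, 1 of 10059 and 5 of 6630, or 0.341%, 0.00994% and 0.0754%. The highest and the lowest share of all 13 mice were thus in 1 group. Acute restriction gave 7 of 9007, 5 of 7190 and 38 of 12336, or 0.0777%, 0.0695% and 0.308%. Long-term restriction gave 25 of 10206, 15 of 8073, 7 of 4387 and 9 of 7894, or 0.245%, 0.186%, 0.16% and 0.114%. The group means were 0.0769% ± 0.0756 (SD, n = 3), 0.142% ± 0.175 (n = 3), 0.152% ± 0.135 (n = 3) and 0.176% ± 0.0547 (n = 4). The exact binomial 95% interval of a single mouse, which covers counting error only, ran for example from 0.000252% to 0.0554% in old ad libitum replicate 2 and from 0.176% to 0.595% in replicate 1.

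**Figure D2:**
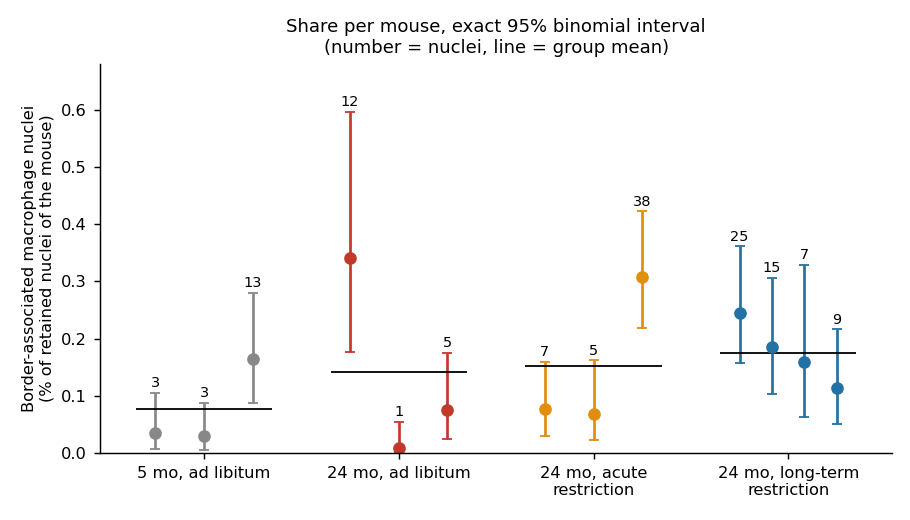
Share of border-associated macrophages among the retained nuclei of each mouse, in percent, by group; bars are exact 95% binomial intervals, numbers are nuclei and lines are group means. Shares run from 0.00994% to 0.341%, both in old ad libitum mice, and all groups overlap.

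The share passed no test between groups. With 3 against 3 mice, the smallest possible permutation p was 0.1 for acute restriction as for ageing, so neither could have passed. The difference in mean log2 odds was 0.26 for ageing (exact two-sided permutation test over mice, p = 1, smallest possible 0.1), 1.22 for long-term restriction against old ad libitum mice (p = 0.371, smallest possible 0.0286), 0.73 for acute restriction (p = 0.8), 0.50 for long-term minus acute restriction (p = 0.457) and 0.97 for all 10 mice of 24 months against the 3 of 5 months (p = 0.294). Adjusted over these 5 comparisons the p-values were 0.762 to 1 by the permutation test. Old ad libitum replicate 2, with its single macrophage, moved 3 of these values: without it the difference was -0.45 for acute restriction, 0.05 for long-term restriction and 1.44 for ageing. Without old replicate 1 acute restriction was at 1.84 and long-term restriction at 2.34, and without acute replicate 3 acute restriction was at 0.07. Ageing turned negative without old replicate 1 (-0.85) and without young replicate 1 (-0.03) or 2 (-0.16). Without the 4 libraries numbered 1 the differences were -1.14 for ageing, 2.17 for long-term and 2.14 for acute restriction, 0.03 for long-term minus acute and 0.40 for all old mice against young. The last was 0.16 over microglia in place of all nuclei and 0.41 over the 752 to 2985 nuclei per mouse, of any class, without doublet marks or high neuronal counts. With only doublets and the 18 macrophages left out, it was 1.07, and ageing was 0.44.

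Over the 13 mice of all groups, the macrophage share rose and fell with the share of fibroblasts, the cells that form the meninges and sheath larger vessels. Fibroblast nuclei, chosen by the same form of rule on Ranbp3l, Slc6a13, Col1a2 and Dcn, numbered 519. Old ad libitum replicate 4 had the fewest, 4, and long-term restriction replicate 1 the most, 134. Over 13 mice the log2 shares correlated with Pearson's r = 0.75 (permutation p = 0.00319, adjusted over 4 relations 0.0128) and Spearman's rank coefficient = 0.75 (permutation p = 0.00422, adjusted 0.0169). Without the 2 mice farthest from the median fibroblast share (old ad libitum replicate 1 and long-term restriction replicate 1), r was 0.64. In the 9 libraries not numbered 1, r was 0.75, and the 4 libraries numbered 1 were too few for a value. Endothelial nuclei gave r = 0.55 (permutation p = 0.0494, adjusted 0.0658), mural nuclei 0.58 (p = 0.0375, adjusted 0.0658 by permutation) and microglia 0.30 (permutation p = 0.32). All these shares have the same denominator. Mice were permuted without regard to group, so differences between groups enter r and p. Mean fibroblast shares were 0.169% in young, 0.637% in old ad libitum, 0.508% in acute and 0.711% in long-term restricted mice. No r within groups was computed. In acute restriction, replicate 1 had the most fibroblasts (0.810%) and replicate 3 (0.559%) the most macrophages. In each other group the same mouse had the most of both. Set against fibroblasts in place of all nuclei, the differences changed sign to -0.15 for ageing, -0.26 for long-term restriction, -0.35 for acute restriction and -0.35 for all old mice against young. The macrophages per 100 fibroblasts ran from 9.59 in acute restriction replicate 1 to 125 in old ad libitum replicate 4, and per 100 microglia were lowest at 0.926 in old ad libitum replicate 2 and highest at 51.0 in long-term restriction replicate 1. How much border tissue each dissection carried cannot be told apart from the number of macrophages.

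**Figure D3:**
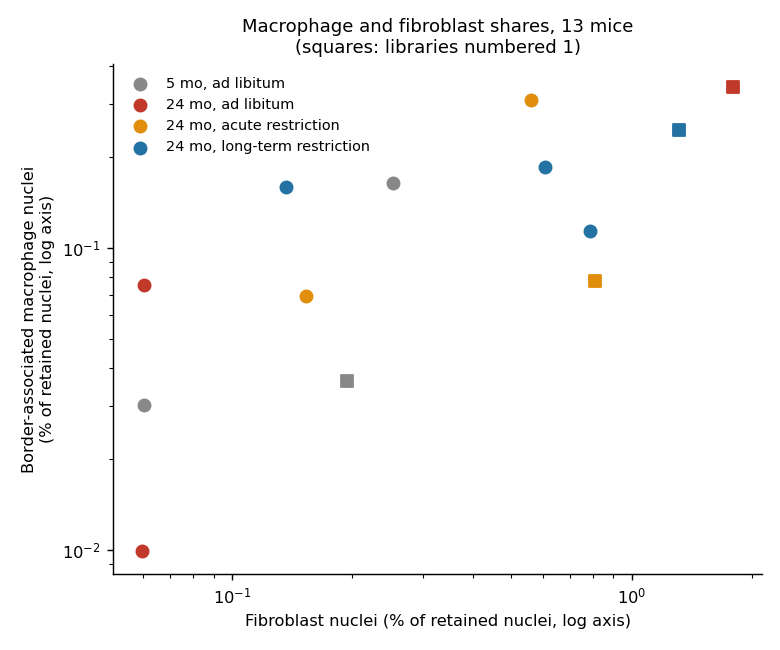
Each point is a mouse, with fibroblast nuclei (x) and border-associated macrophage nuclei (y) as percent of its retained nuclei, both on log axes; colours are groups and squares are libraries numbered 1. Mice with more fibroblasts tended to have more macrophages (r = 0.75 over 13 mice of all groups).

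Microglia were the nearest comparison, since both are macrophages of the same brain. Microglia were 941 nuclei chosen by the same form of rule on P2ry12, Siglech, Gpr34 and Tmem119, with a median of 1474 UMIs. The 15 nuclei that passed both rules were kept as border-associated macrophages. Counts were summed per mouse and class in the 10 mice with at least 5 nuclei of both (136 macrophage and 768 microglial nuclei) and compared within mice by edgeR's quasi-likelihood test. Outside the genes of both rules, 1360 genes passed the filter on low counts. At a Benjamini-Hochberg adjusted p below 0.05, 250 genes were higher in the border-associated macrophages (18.4%) and 318 lower (23.4%), in all 41.8%, with a median log2 fold of 0.02 over all genes tested. Without the 18 nuclei above, and without microglia marked likewise, 221 were higher and 248 lower of 1145 tested, in 9 mice, since acute restriction replicate 2 then had only 4 macrophages. Of the 568 calls, 487 were tested there and 385 were called again. Of the 8 pan-neuronal genes, 4 were tested among all nuclei, and Grin2a was among the 250 called higher. Without the marked nuclei, 2 were tested and 0 called.

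Of the genes that passed the filter on low counts, those of largest fold are named by size. Sparser genes that did not pass it are given further on. Of the genes called higher, 72 had the same direction in all 10 mice and at least 30 UMIs, and the 15 of largest fold follow. Gm30489, an antisense RNA within F13a1, had 210 UMIs in the macrophages and none in microglia, which is at least 278-fold higher per UMI against a floor of 3 counts over the microglia (edgeR adjusted p = 5.41e-10). Counting by strand was not given in the sources used here, so its reads cannot be told apart from those of F13a1, a gene of the rule. Its fold may thus repeat the rule, although it is counted among the 250 calls and these 15. Aoah, the enzyme that inactivates bacterial lipopolysaccharide, ran from 436.8 to 2009 CPM over the mice in macrophages (median 953) and from 0 to 31.8 in microglia, a log2 fold of 7.02 ± 0.31 SE (edgeR adjusted p = 1.57e-14). The antisense RNA F630028O10Rik followed with 6.99 ± 0.38. Dab2, an adaptor for clathrin-mediated uptake, lay at 1385 to 4230 CPM (median 1743) against 0 to 63.6, a log2 fold of 6.86 ± 0.30. No mouse overlapped between the classes for these genes.

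The next genes were of several kinds. Rbpj, the DNA-binding partner of Notch, was at 2475 to 5284 CPM (median 3640) in macrophages and 85.5 to 216.1 in microglia (log2 fold 5.01 ± 0.17, edgeR adjusted p = 7.41e-17). Vav3, an exchange factor for small GTPases, was higher by 5.58 ± 0.39, the endocytic scaffold Itsn1 by 4.93 ± 0.26, the RNA-binding Samd4 by 4.81 ± 0.40 and the scaffold Sash1 by 4.73 ± 0.37 on the log2 scale. Colec12, a scavenger receptor collectin, was higher by 4.56 ± 0.28 with 629 UMIs in 108 nuclei. Fibroblasts had 1793 CPM of Colec12 and the macrophages 1706. The GTPase regulators Arhgef3 (4.49 ± 0.33) and Arhgap15 (3.87 ± 0.27), the scaffold Iqgap2 (4.47 ± 0.28), the GATA-type repressor Trps1 (4.01 ± 0.25) and the pyrimidine-degrading enzyme Dpyd (3.75 ± 0.28) completed the 15. Dpyd was not tested among the 125 nuclei without high neuronal counts or doublet marks, and the log2 folds of the others but Gm30489 there were 4.01 to 7.55.

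The 10 genes of largest fold lower in border-associated macrophages were drawn from 195 that were lower in every mouse. Of these 10 genes, 9 are given here. The long non-coding RNAs 8030442B05Rik (-5.52 ± 0.41), A830008E24Rik (-5.51 ± 0.48), Gm2629 (-4.60 ± 0.37) and E230029C05Rik (-4.56 ± 0.39) had 3 to 14 UMIs in macrophages against 767 to 1575 in microglia. Nhs, a regulator of the actin cytoskeleton, had 4 UMIs against 868 (-5.37 ± 0.39), and the collagen gene Col27a1 had 5 against 595 (-5.16 ± 0.43). The membrane protein Plxdc2 lay at 0 to 582 CPM against 4569 to 6222 (-4.85 ± 0.46), the glutamate transporter Slc1a3 at 0 to 332.8 against 2650 to 4223 (-4.44 ± 0.44), and the Rac regulator Chn2 at 0 to 203.8 against 812 to 1255 (-4.12 ± 0.42).

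**Figure D4:**
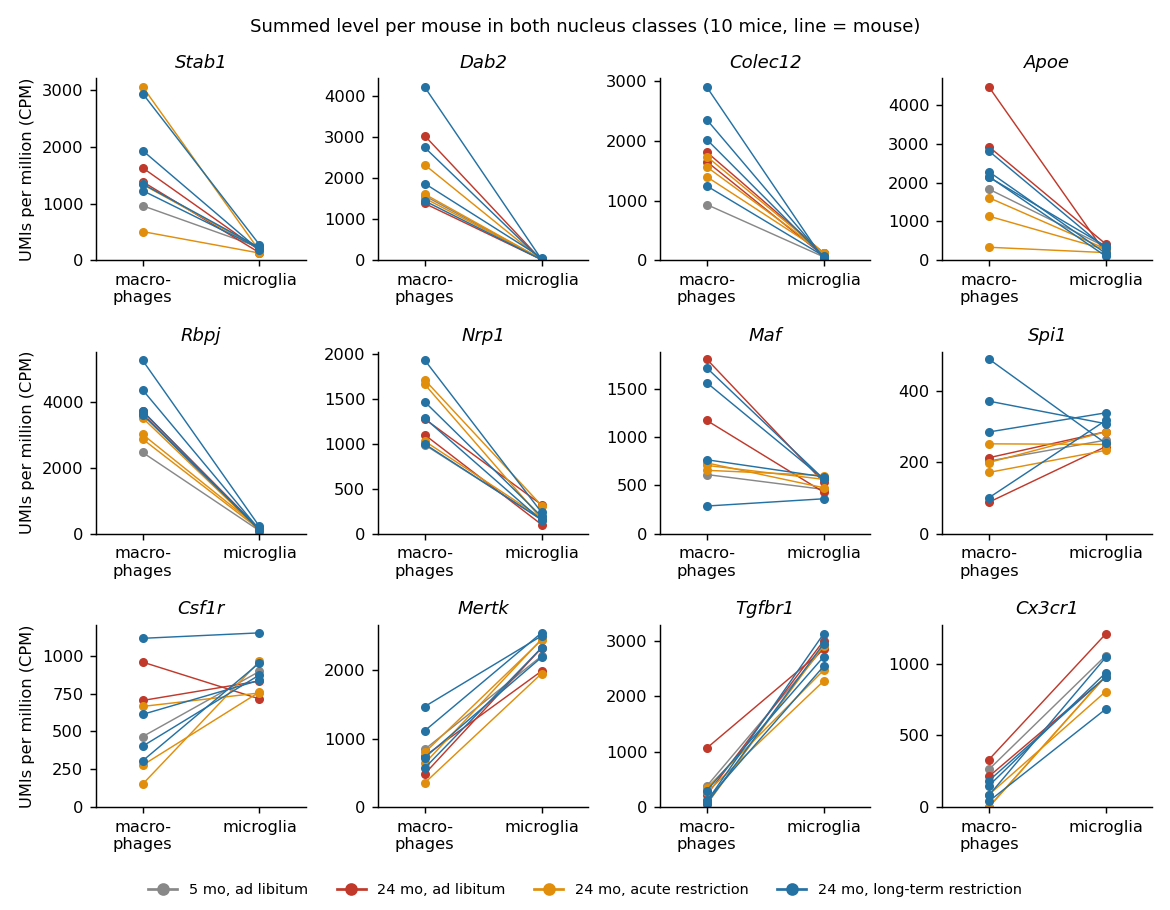
Levels in CPM (linear axes from 0) of 12 genes summed per mouse in border-associated macrophages (left) and microglia (right); each line is 1 of 10 mice, coloured by group. Stab1, Dab2, Colec12, Apoe, Rbpj and Nrp1 fall towards microglia in every mouse, Mertk, Tgfbr1 and Cx3cr1 rise in every mouse, and Spi1 goes either way.

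Genes of uptake and endocytosis went both ways. Of 25 scavenger and endocytic genes 7 passed the filter, with 5 called higher and 2 lower, against 18.4% and 23.4% of all genes tested, and a median log2 fold of 0.80 against 0.02. Of the 7, Stab1 and Colec12 among the receptors were higher, and Mertk and Lrp1 lower. Stab1, a scavenger receptor for modified lipoproteins and hyaluronan, ran from 504 to 3062 CPM in macrophages and 125.3 to 273.1 in microglia (log2 fold 3.15 ± 0.20), without overlap. Clathrin heavy chain Cltc (0.80 ± 0.18) and the sorting nexin Snx24 (0.76 ± 0.17) were also called higher, but not without the filter on low counts (0.18 and 0.14, edgeR adjusted p = 0.74 and 0.792). Mertk, the receptor by which macrophages engulf dying cells, was lower in every mouse, at 353 to 1471 CPM against 1954 to 2552 (-1.48 ± 0.16), and the lipoprotein receptor Lrp1 was lower by 1.89 on the log2 scale (log2 fold -1.89 ± 0.25). Neither Mertk nor Lrp1 overlapped between the classes.

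Most other uptake receptors were too sparse for the filter and are given as summed counts over all members and all microglia, with intervals that cover counting error only. Lyve1, the hyaluronan receptor, had 60 UMIs in 33 macrophage nuclei and 0 in microglia, which is at least 79.5-fold higher per UMI against a floor of 3 counts over the microglia. The C-type lectins Cd209g (46 UMIs against 0, at least 61.0-fold higher), Cd209f (89 against 1) and Cd209b (107 against 1) followed, though these are close copies between which reads may be divided. Msr1, scavenger receptor A, had 89 against 6 UMIs, a ratio of 59.0 (26.1 to 165). Siglec1, the sialic acid receptor sialoadhesin, had 63 against 2 (ratio 125, interval 33.3 to 1057), and the lectin Clec10a 37 against 2 (73.6, 19.0 to 630). The inhibitory Fc receptor Fcgr2b had a ratio of 4.02 (2.95 to 5.49) and the recycling Fc receptor Fcgrt of 8.65 (4.75 to 16.4), both higher in 10 of 10 mice. With at least 1 count in 2 sums in place of the filter, edgeR's adjusted p was 6.45e-20 for Lyve1, 5.41e-24 for Msr1 and 5.3e-05 for Fcgr2b.

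The shares of nuclei with a UMI show the same order, and granule neurons give the background of free RNA. Granule nuclei numbered 48, 57 and 19 in the young and 2, 12 and 7 in the old ad libitum mice. There were 13, 8 and 20 under acute and 20, 5, 2 and 6 under long-term restriction. This background thus rests in large part on young libraries. Stab1 was found in 91.6% of the macrophages, 23.7% of microglia and 0 of 219 granule nuclei, which allows a share of up to 1.37% there by a floor of 3 counts and 1.67% by the exact binomial limit. At 1000 UMIs per nucleus, for which 8 macrophages, 59 microglia and no granule nuclei were too shallow, the shares were 80.7%, 17.2% and 0. Dab2 was in 91.6%, 2.34% and 0 before this thinning and in 81.5%, 1.81% and 0 after. Lyve1 was in 23.1% (exact binomial interval 16.4 to 30.9) of the macrophages and Ms4a7 in 46.2% (37.8 to 54.7), with neither in any microglial or granule nucleus. Apoe had a background: 90.2%, 27.0% and 27.4% before thinning and 76.3%, 19.7% and 10.5% after. Median depths were 1622, 1474 and 4611 UMIs.

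Of 19 ligands and cytokines only 2 passed the filter, 1 called higher and 1 lower (18.4% and 23.4% over all genes tested). Apoe, the lipid carrier apolipoprotein E, lay at 333 to 4475 CPM (median 2152) against 103 to 417 in microglia (log2 fold 3.09 ± 0.28, edgeR adjusted p = 7.63e-08), higher in 10 of 10 mice, with 1 overlap between the lowest macrophage value, in acute restriction replicate 2, and the microglia of other mice. Tgfb1 was lower (-1.06 ± 0.29), though not called among the 125 nuclei (-0.76, edgeR adjusted p = 0.0517). Among the sparse ligands, the growth factor Igf1 had 93 UMIs in 52 nuclei against 7 in microglia (ratio 52.8, interval 24.6 to 135). Pdgfc, a platelet-derived growth factor, had 122 against 22 (22.0, 13.9 to 36.5), the chemokine Ccl12 47 against 9 (20.8, 10.1 to 48.2) and Gas6, the bridging ligand of Mertk, 96 against 83 (4.60, 3.39 to 6.25). Pf4, a chemokine that marks border-associated macrophages, had 22 against 0 (at least 29.2-fold higher).

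Among receptors for signals, more were called lower than higher. Of 26 receptors 12 passed the filter, with 1 called higher and 8 lower, against 18.4% and 23.4% of all genes tested, and a median log2 fold of -0.76. Among the 125 nuclei 2 of 11 were higher and 5 lower, against 19.3% and 21.7% of all genes tested there. Nrp1, a co-receptor for VEGF and semaphorins, was the one higher (2.98 ± 0.18). Cx3cr1, the receptor through which neurons restrain microglia, was lower in every mouse (-2.72 ± 0.29), although its annotated span overlaps other genes on the same strand. Tgfbr1, the type I TGF-beta receptor that maintains microglia, was at 50.4 to 1066 CPM against 2277 to 3131 in microglia (-3.34 ± 0.30). Its partner Tgfbr2 was not called (0.15 ± 0.19), but was called higher among the 125 nuclei (0.62, edgeR adjusted p = 0.00281). Csf3r (-2.19 ± 0.26), Il10ra (-2.11 ± 0.38), Ifngr2 (-0.90 ± 0.32) and Il6ra (-0.59 ± 0.20) were also lower, with Il6ra not called among the 125 nuclei (-0.25, edgeR adjusted p = 0.384) and Ifngr2 not tested there. Csf1r, on which both cell types depend for survival, was called slightly lower (-0.63 ± 0.21, edgeR adjusted p = 0.0211), but not among the 125 nuclei (-0.34, edgeR adjusted p = 0.142). Nr3c1, the glucocorticoid receptor (0.23 ± 0.26), and the interferon receptor Ifnar2 (0.05 ± 0.21) were not called.

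Transcription factors were called in both directions. Of 26 factors 15 passed the filter, with 4 higher and 7 lower, against 18.4% and 23.4% of all genes tested, and a median of -0.28. Among the 125 nuclei 6 were higher and 6 lower, against 19.3% and 21.7%. Besides Rbpj, the macrophages had more Maf, a factor of tissue-resident macrophages (0.96 ± 0.20, edgeR adjusted p = 4.8e-04), Zeb2 (0.82 ± 0.13) and Tcf4 (0.65 ± 0.17). Sall1, the factor that holds microglial identity, was lower by 3.81 (log2 fold -3.81 ± 0.42), as were Ikzf1 (-1.95 ± 0.23), Bach2 (-1.78 ± 0.22), Smad3 (-1.44 ± 0.29), Mef2a (-0.96 ± 0.18), Irf8 (-0.81 ± 0.26) and Nfia (-0.58 ± 0.18). Spi1 (-0.17 ± 0.22), Runx1 (0.17 ± 0.18), Mef2c (-0.28 ± 0.15) and Fli1 (0.24 ± 0.18), factors that both classes use, were not called. Among the 125 nuclei Runx1 (0.51, edgeR adjusted p = 0.00709) and Fli1 (0.51, edgeR adjusted p = 0.00851) were called higher and Irf8 was not called (-0.34, edgeR adjusted p = 0.35). Without the filter on low counts, the median fold of the same 1360 genes moved to -0.58. In that setting, Maf (0.34, edgeR adjusted p = 0.355), Zeb2 (0.18, edgeR adjusted p = 0.599) and Tcf4 (0.03, edgeR adjusted p = 0.961) were not called.

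**Figure D5:**
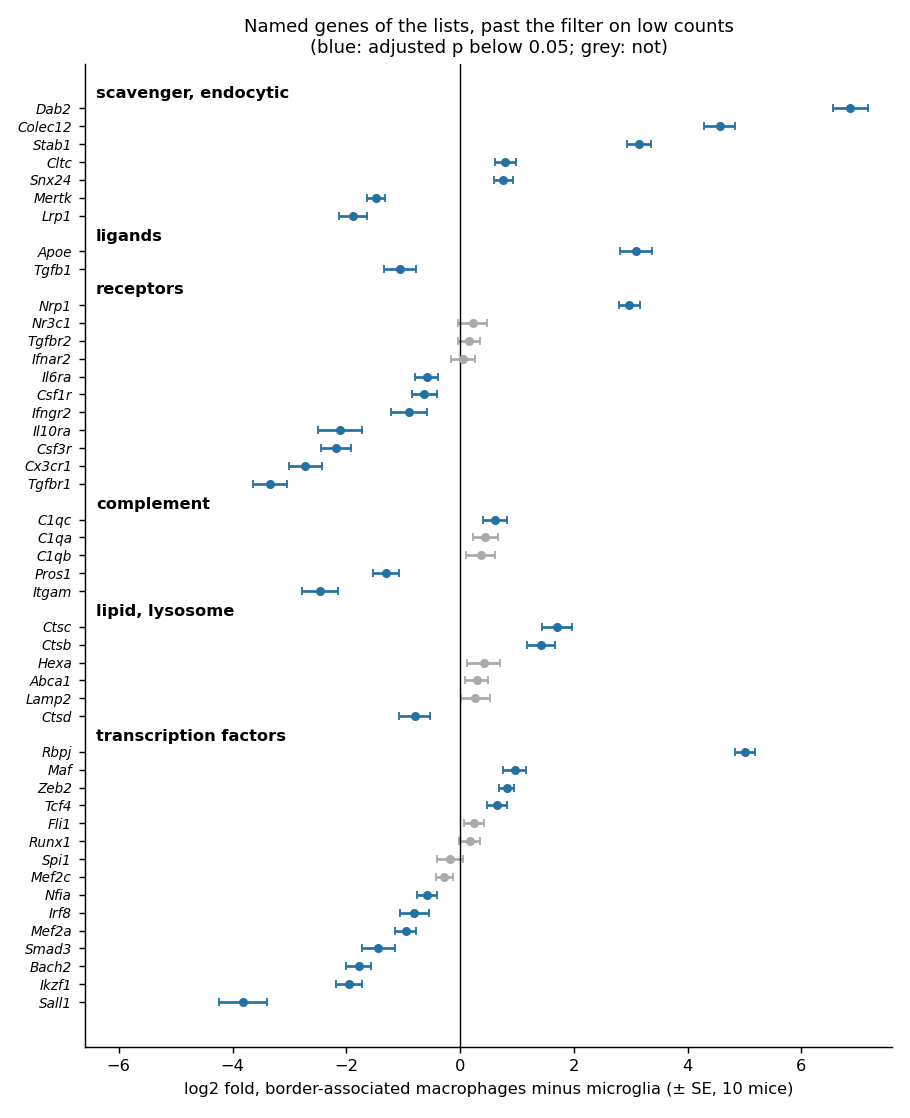
Log2 fold of border-associated macrophages minus microglia (points, ± SE) for the named genes of 6 lists that passed the filter on low counts, in 10 mice; blue points had an adjusted p below 0.05. Dab2, Rbpj and Colec12 lie farthest to the right and Sall1 and Tgfbr1 farthest to the left.

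Complement, antigen presentation and iron handling gave fewer tested genes. Over all genes tested 18.4% were called higher and 23.4% lower, and 19.3% and 21.7% among the 125 nuclei. Of 16 complement and coagulation genes 6 were tested: C1qc was higher (0.62 ± 0.21), C1qa (0.44 ± 0.22) and C1qb (0.36 ± 0.25) were not called, and the integrin Itgam (-2.47 ± 0.32) and protein S, Pros1 (-1.30 ± 0.23), were lower. Among the 125 nuclei 4 of the 6 were called higher, the C1q genes among them, and 2 lower. Without the filter C1qc was not called (0.04, edgeR adjusted p = 0.966). The C1q genes are related copies. C4b had 47 UMIs against 13 (ratio 14.4, 7.65 to 29.0) and the receptor C5ar1 39 against 16 (9.69, 5.29 to 18.6). No gene of the 17 of iron and heme handling passed the filter. There, Blvrb, a biliverdin reductase in heme breakdown, had a ratio of 12.9 (7.26 to 24.2) and was higher in 10 of 10 mice. Ceruloplasmin, Cp, a ferroxidase, had 6.47 (4.73 to 8.90), and ferritin heavy chain Fth1 had 61 UMIs against 237, a ratio of 1.02. Of 27 lipid and lysosome genes 7 were tested, with 2 called higher and 2 lower. Among these were the cathepsins Ctsb (1.42 ± 0.24) and Ctsc (1.70 ± 0.26) on the higher and Ctsd (-0.79 ± 0.27) on the lower side. Ctsd was not called among the 125 (-0.43, edgeR adjusted p = 0.266), where the lipid exporter Abca1 was called higher (0.60, edgeR adjusted p = 0.0104). Of 12 genes of MHC class II presentation 2 were tested, neither of them a class II molecule. The cathepsin Ctss, which trims the class II chaperone, was lower (-1.07 ± 0.24), and the co-stimulator Cd86 was not called (0.14 ± 0.25). H2-Aa, H2-Ab1, H2-Eb1 and Cd74 did not pass the filter. Together they had 88 UMIs in the macrophages against 11 in the more numerous microglia. Of 13 MHC class I and interferon genes 0 were tested. There, H2-D1 had a ratio of 3.63 (2.46 to 5.37) and H2-K1 of 3.66 (2.25 to 5.95), and without the filter edgeR called neither (adjusted p = 0.0577 and 0.103). These 2 genes are near-identical copies. Of the glucocorticoid and fasting list only Fkbp5 was tested, and it was not called (0.30 ± 0.21) except among the 125 nuclei (0.61, edgeR adjusted p = 0.033), and the glucocorticoid-induced Tsc22d3 had a ratio of 4.93 (3.34 to 7.31). Of 19 ageing and inflammation genes, Neat1 (2.25 ± 0.23) and Lrmda (0.54 ± 0.19, not called without the filter at -0.08) were higher, Cadm1 was lower (-1.21 ± 0.22) and Nfkb1 was not called (-0.20 ± 0.22). The NAD-consuming enzyme Cd38, too sparse for the filter, had 101 UMIs in 39 nuclei against 1 in microglia, and its span overlaps other genes on both strands.

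Antigen presentation and Lyve1 varied among the macrophages. The MHC class II genes H2-Aa, H2-Ab1, H2-Eb1 and Cd74 had 88 UMIs together in 29 nuclei (20.3%), and 5 nuclei held 47 of these. In microglia 9 of 941 nuclei and in granule neurons 0 of 219 had any, though many of these granule nuclei were from young mice. Lyve1 or a Cd209 gene of the 3 above was found in 96 nuclei (67.1%). Both kinds were found together in 16, class II alone in 13, and neither in 34. Class II UMIs were thus in 16.7% of the nuclei with a Lyve1 or Cd209 UMI and in 27.7% of the 47 without. At these counts a nucleus without a UMI is not shown to lack the RNA. By mouse, class II UMIs were in 0 of 3, 0 of 3 and 0 of 13 macrophages of the young mice and in 3 of 12, 0 of 1 and 4 of 5 of old ad libitum replicates 1, 2 and 4. They were in 1 of 7, 0 of 5 and 10 of 38 under acute and in 5 of 25, 4 of 15, 1 of 7 and 1 of 9 under long-term restriction. The 0 of 19 in young mice allows a share of up to 15.8% by the floor of 3 counts, which pools the nuclei of 3 mice and covers counting error only. Young macrophages had a median of 1412 UMIs and old ones 1657, and no difference in these shares between groups was tested. Lyve1 or Cd209 UMIs were in 2 of 3, 2 of 3 and 11 of 13 young macrophages, in 9 of 12, 1 of 1 and 3 of 5 of old ad libitum, 3 of 7, 4 of 5 and 28 of 38 of acute and 15 of 25, 9 of 15, 1 of 7 and 8 of 9 of long-term restricted mice.

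Each gene of the rule was compared between groups in nuclei chosen by the other 2, since its level in all members is set in part by the rule. Mrc1, in nuclei with both F13a1 and Cd163, was at 3700 CPM in young replicate 3, 2573 in old ad libitum replicate 1, 1715, 3927 and 3308 in the acute group and 2388, 2432, 2709 and 7638 in the long-term group. F13a1, in nuclei with Mrc1 and Cd163, was at 2444, then 5210, then 9056, 4793 and 6252, and 8076, 3394, 6095 and 6111 in the same order. Cd163, in nuclei with Mrc1 and F13a1, was at 423 in young replicate 3, 793 and 533 in old ad libitum replicates 1 and 4, 656, 865 and 874 in the acute group and 713, 428, 1042 and 1226 in the long-term group. Young and old ad libitum groups held 1 or 2 mice with at least 5 such nuclei, so no contrast with them could reach p below 0.0667 by permutation. Long-term minus acute restriction differed by 0.23 for Mrc1, -0.19 for F13a1 and 0.00428 for Cd163 in log2(CPM + 50) (exact two-sided permutation p = 0.743, 0.6 and 1, smallest possible 0.0286). Acute and long-term values overlapped for all 3 genes, and the single young mouse was the lowest of those given for F13a1 and Cd163.

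Between groups, no gene within the macrophages passed the threshold. The fit covered 1404 genes, the 3 of the rule included, in the 10 mice with at least 5 nuclei: 1 young, 2 old ad libitum, 3 acute and 4 long-term restricted. The 3 count in the totals, but the rule sets their level here in part, and they are not read as tested. The single young mouse is assumed to vary like the others. Because this group held 1 mouse, the filter on low counts asked for a sufficient level in only 1 mouse. A gene could thus be tested through the group where it was high. With edgeR's quasi-likelihood test, 0 genes (0%) were called in each of the 4 contrasts, with 113 genes at an unadjusted p below 0.05 for ageing (8.05%), 98 for long-term restriction (6.98%), 194 for acute restriction (13.8%) and 51 for long-term minus acute restriction (3.63%). DESeq2 called 0, 0, 20 and 0. Without the 18 nuclei, edgeR called Csmd3 for ageing (-5.01, adjusted p = 0.0114) and Prkg1, a cGMP-dependent kinase, for long-term restriction (-1.90, adjusted p = 0.0228), in 9 mice. Csmd3 had 66 UMIs in the single young mouse, 42 of them in its 11 nuclei of this fit, against 1 and 2 there in the old ad libitum mice. Of the 84 Prkg1 UMIs of old ad libitum replicate 1 in this fit, 51 lay in the nucleus with endothelial and mural counts, which stayed among the 125. The smallest adjusted p-values in edgeR were 0.28, 0.649, 0.277 and 0.968.

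The genes of smallest p, which did not pass, are given with their counts. For ageing these were higher: Sgms1 (sphingomyelin synthase), Nr3c1, Spred1, Rad51b and Nedd9. Of the 33 Sgms1 UMIs in old ad libitum replicate 1, 24 lay in the nucleus with endothelial counts. Nr3c1 had 21 and 4 UMIs in the old mice and 1 in the young one (log2 fold 3.58 ± 1.08, edgeR adjusted p = 0.57). Lower were Ntrk3, Csmd3, Cacna1e and Cttnbp2, all genes of neurons as well. Ntrk3, a neurotrophin receptor, had 0 and 0 against 30 UMIs, and 91.5% of its UMIs over all members lay in the 18 nuclei with high neuronal counts or doublet marks. The same gene led the higher side under long-term (22, 27, 4 and 2 against 0 and 0 UMIs) and acute restriction (17, 9 and 51 against 0 and 0). Of the others there, Nrcam, Nbea, Sntg1, Kcnq3, Csmd3 and Syn2 had 67.1% to 88.7% of their UMIs in the 18 nuclei. These contrasts share the old ad libitum mice, which had none of the nuclei with high neuronal counts, and the pan-neuronal list summed to 375 to 1598 CPM in old ad libitum, 998 to 10187 in acute, 920 to 5918 in long-term restricted mice and 3698 in the young mouse.

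Some of the genes lower under restriction, which did not pass either, were held largely by 1 nucleus, and others less so. Flt1 (VEGF receptor 1) had 38 UMIs in old ad libitum replicate 1 and 0 in replicate 4 and in all 4 long-term mice, with all 38 in the single nucleus with endothelial counts. Bsg had 87 of its 106 UMIs there, Atp13a5 24 of 27, Pltp 31 of 56 and Gm42418 76 of 294. In old ad libitum replicate 1 alone, these 4 genes had 89, 24, 33 and 111 UMIs. Rad51b, Sp100 and Tmcc3 completed the lower genes under the 2 kinds of restriction. Over all members, at most 8.98%, 5.80% and 7.07% of their UMIs lay in any 1 nucleus. Within old ad libitum mice they were less spread. A single nucleus held 21 of the 33 Tmcc3 UMIs of replicate 4. In replicate 1, a single nucleus held 22 of the 81 Rad51b UMIs, and 1 held 4 of the 15 of Sp100. Tmcc3 had 39 and 33 UMIs in old ad libitum against 8, 7 and 33 in acute restriction (log2 fold -2.06 ± 0.58, edgeR adjusted p = 0.294). Long-term minus acute restriction was led by Cp, Gm26542, Tmcc3, Ctsc and Sp100 on the higher and Macrod2, Samd12, Syn2, Ghr and Csgalnact1 on the lower side. These lower genes had 70.8% (Ghr) to 89.9% (Samd12) of their UMIs in the 18 nuclei with high neuronal counts or doublet marks. None of them was tested among the 125 nuclei. There the higher genes, in the order given, had log2 folds of 1.31, 1.11, 1.27, 0.70 and 2.13. Cp had 12, 9, 17 and 15 UMIs in long-term and 2, 2 and 17 in acute restriction (1.74 ± 0.62, edgeR adjusted p = 0.968).

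Genes of the macrophage lists showed no call in any contrast. Of 25 scavenger genes 11 were tested, with none below an unadjusted p of 0.05 in any of the 4 contrasts and medians of 0.42, 0.32, -0.09 and 0.24 for ageing, long-term, acute and long-term minus acute restriction, against medians of -0.01, 0.13, 0.07 and -0.06 over all genes tested. Igf1 was at 582 CPM in young replicate 3 and at 176 and 107 in the 2 old ad libitum mice (log2 fold -2.05 ± 0.78, edgeR unadjusted p = 0.021, adjusted p = 0.575). In the young mice left out for few nuclei, it had 4 UMIs and 1. Apoe was at 2930 and 4475 CPM in old ad libitum and 1614, 333 and 1136 in acute restriction mice, which did not overlap (-1.44 ± 0.58, edgeR unadjusted p = 0.0299, adjusted p = 0.331). Among the 125 nuclei they did overlap, at 3218 and 4475 against 3334, 653 and 2009 CPM, and the fit, which dropped acute replicate 2 with its 4 nuclei, gave -0.71 (edgeR unadjusted p = 0.1, adjusted p = 0.985). H2-D1, a class I molecule, had an unadjusted p below 0.05 in 3 contrasts, with log2 folds of 3.49 ± 1.46 for ageing, -1.87 ± 0.79 for long-term and -2.004 ± 0.86 for acute restriction (edgeR adjusted p = 0.611, 0.666 and 0.34), which share the old ad libitum mice, and it was not tested among the 125. Nr3c1, Cp (2.47) and Lrmda (1.50) for ageing and Tgfbr1 (-1.78) for long-term restriction were also below it. So were Tgfbr2 (-1.09), Ctsd (-2.22), Cp (-1.77) and Cadm1 (1.64) for acute restriction, and Cp, Ctsc (1.35) and Cadm1 (-1.15) for long-term minus acute. The adjusted p of these 11 values in edgeR was 0.329 to 0.968.

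A test of whether each contrast differed between macrophages and microglia of the same mice gave few calls. Here too the filter on low counts asked for a sufficient level in only 1 sum. Genes could thus enter through the group where they were high, and the calls and shares below carry this limit. Over 4364 genes edgeR called 41 for ageing (0.94%; 3 higher, 0.0687%, and 38 lower, 0.871%), 9 for long-term restriction (0.206%, all higher), 41 for acute restriction (0.94%; 38 higher, 0.871%, and 3 lower, 0.0687%) and 0 for long-term minus acute restriction (0%), where 128 genes had an unadjusted p below 0.05. Without doublets and nuclei with high neuronal counts 5, 0, 0 and 0 were called. For ageing the 5 were Cp, Plxdc2, Chn2, Nav2 and Csmd3. Plxdc2 and Chn2 are also among the genes named above as lower in macrophages than in microglia. In the macrophages kept for this fit, the microglia list was at 2469 CPM in the young mouse and 1394 to 1811 in old ad libitum mice. It was at 1200 to 1436 in acute and 726 to 1900 in long-term restricted mice. Its part in these calls was not tested. Over all members, Cp had 23 and 7 UMIs in the old and 3 in the young mouse, and their microglia had 0, 0 and 15. Without doublets and nuclei with high neuronal counts, the fitted difference for Cp was 8.20. This value rests on 1 young mouse and on counts of 0 and gives no size of change. Within the macrophages alone Cp was not called (2.47 ± 1.10, edgeR adjusted p = 0.612). Single libraries moved these counts: without old ad libitum replicate 1, 7, 0 and 1 genes were called for ageing, long-term and acute restriction, and without its replicate 4, 18, 5 and 24. Without the young mouse 0 were called for long-term and 5 for acute restriction. Without long-term replicates 1, 2, 3 and 4 the long-term count was 1, 0, 25 and 19. Without acute replicates 1 and 3 the acute count was 26 and 27. For long-term minus acute restriction the count was 1 without long-term replicate 1 and 5 without replicate 2.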

How the data were processed

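The data are single-nucleus RNA libraries (10x 3′ v3.0) from Hoechst-sorted nuclei of the hippocampus. The deposited values are raw UMI counts per gene and barcode, made by the authors with Cell Ranger 4.0.0, per the file headers, on mm10, per the submitters' processing notes. Strand, intron counting, ambient correction and doublet removal are not given in the sources used here.

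Barcodes below 500 genes or above 5% mitochondrial UMIs were dropped, and nuclei were assigned by marker rules of at least 3 UMIs and 15 per 10000. Doublets were scored with Scrublet in scanpy 1.11.5. In each library the nuclei of highest score were marked, at an assumed rate of 0.8% per 1000 retained nuclei. The number marked (7386 of all retained nuclei, 7.01%) was thus set by this rate and not found by the caller. Marked nuclei were kept unless stated. Counts were summed per mouse and class with at least 5 nuclei and tested with edgeR 4.0.16 (quasi-likelihood, TMM, Benjamini-Hochberg over all genes tested, threshold 0.05) in R 4.3.3. DESeq2 1.42.0 was an alternative. Shares were compared by exact permutation of mice (scipy 1.17.1) on log2 odds with 0.5 added. The scripts were tested on simulated data. Depth was 38546292 to 80538090 UMIs per library, and intervals at 95% and floors of 3 counts cover counting error only. Gene positions are from GENCODE vM21.

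Against microglia, the text names the 15 higher and 10 lower called genes of largest fold that had 1 direction in every mouse and at least 30 UMIs. For group contrasts it names 5 per direction of smallest p, and 3 where the contrast was compared with microglia. Listed genes with at least 30 UMIs could be named. Listed genes that passed the filter, Pf4, Folr2 and the class II genes are also named below that number, chosen after their values were seen. Some genes these rules select are not reported here. The members and the lists were chosen with earlier results of these data known. Alternatives covered the rule, the filter, scaling, doublets, the minimum of nuclei, denominators, the replicate block and each replicate left out. Those without nuclei of high neuronal counts and, for genes between groups, without libraries numbered 1 and without a minimum of nuclei were chosen after seeing the data.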

Additional observations from a re-analysis of the deposited data

Results flagged for a closer look

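For 2 genes 1 mouse lay far from the other 9 in the difference between macrophages and microglia, in log2(CPM + 50). A830008E24Rik was at -1.95 in young replicate 3 and E230029C05Rik at -1.76 in acute restriction replicate 2. In each the gene was still lower in macrophages. Chance alone sets about 1 group in 20 apart this way.

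A contrast between groups differed between macrophages and microglia, by edgeR's interaction test, for 41 genes in ageing, 9 in long-term restriction and 41 in acute restriction. A gene could pass the filter on low counts through 1 sum, where it was high, since the young group held 1 mouse. The ageing contrast has this single young mouse, which is assumed to vary like the others. Its count was 5 without the 18 nuclei described next and 7 without old ad libitum replicate 1. For ageing the differences of log2 fold were led by Cp (8.35), Sgms1 (8.90) and Ptgds (9.004) on the higher side and by Lrrtm4 (-5.08), Dlgap1 (-5.02) and Kalrn (-5.47) on the lower. For long-term restriction they were led by Gpc5 (9.09), Mdga2 (3.78) and Ntm (5.69). For acute restriction they were led by Gpc5 (10.61), Mdga2 (4.80) and Lrrtm4 (3.94), and by Rad51b (-2.72), Cp (-6.78) and Bsg (-4.60) on the lower side. The 18 nuclei with high neuronal counts or doublet marks held 91.2% of the UMIs of Lrrtm4, 90.9% of Dlgap1, 90.5% of Kalrn, 84.2% of Mdga2, 76.3% of Ntm and 68.6% of Gpc5, but 14.7% of those of Cp. Without these nuclei, the difference for Cp in ageing was 8.20 (edgeR adjusted p = 0.0232), with 0 UMIs in both old microglial sums. Sgms1 and Ptgds, which had 0 UMIs in the young mouse, were not called (adjusted p = 0.125 and 1), and Gpc5 had 0 in both old ad libitum mice. The values of these 4 genes give no size of change. Sgms1 had 24 of its 108 UMIs in the single nucleus with endothelial counts, and these were 24 of the 33 in old ad libitum replicate 1.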

How the results depend on the processing

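The difference in share for ageing (0.26 in log2 odds) reversed over nuclei of any class without doublets or high neuronal counts, which left 752 to 2985 nuclei per mouse (-0.35), over microglia (-0.45), over fibroblasts (-0.15) and without the libraries numbered 1 (-1.14). Without doublets and with only the macrophages of high neuronal counts left out, it was 0.44. Over fibroblasts, long-term restriction (-0.26), acute restriction (-0.35) and all 24-month against 5-month mice (-0.35) reversed too. With 1 mouse left out, the difference ran from -0.85 to 1.44 for ageing, 0.05 to 2.34 for long-term restriction, -0.45 to 1.84 for acute restriction, 0.14 to 1.15 for long-term minus acute and 0.55 to 1.69 for all old against young, with the negative values without young replicates 1 (-0.03) and 2 (-0.16), old replicate 1 (-0.85) and, for acute restriction, old replicate 2 (-0.45). Cd163 under long-term minus acute restriction was at -0.000763 with a pseudocount of 10. Counts of calls between groups, 0 in the main design, became 18, 21 and 69 for ageing, long-term and acute restriction with at least 1 count in 2 mice, and 161, 173 and 200 with at least 10 nuclei per sum, which left 1 or 2 mice per group. Without doublets 1 was called for ageing and 1 for long-term minus acute, and without doublets or nuclei of high neuronal counts 1 for ageing and 1 for long-term restriction. The stricter rule gave 4 for long-term and 1 for acute restriction, and DESeq2 gave 20 for acute. Leaving out 1 mouse gave 0 to 1 for ageing (1 without long-term replicate 4), 0 to 1 for long-term (1 without old replicate 4) and 0 to 1 for acute restriction (1 without either). Against microglia, 1857 were called with at least 1 count in 2 sums (642 higher, 1215 lower, with 413 of the 568 calls of the filtered fit among them and 542 in the same direction) and 456 to 586 with 1 mouse left out. The difference of contrast from microglia gave 5 for ageing, 0 for long-term and 0 for acute restriction without doublets or nuclei of high neuronal counts, and 6, 0 and 23 without doublets only, with 1 for long-term minus acute. RLE scaling gave 6 for long-term minus acute. With 1 mouse left out these counts ran from 7 to 59, 0 to 25, 1 to 55 and 0 to 5 in the same order. Ntrk3 for ageing went to 0.00 without doublets. In the difference of contrast from microglia for ageing, Dlgap1 (5.60, or 5.53 without nuclei of high neuronal counts too) and Kalrn (4.94 or 4.89) reversed. The cause was not tested. Of the other values for single genes outside the left-out mice, 532 kept side and direction, 26 lost and 52 gained the threshold. Same-numbered mice correlated at -0.19 to 0.27 in their deviations, and the numbers were not taken as pairs. With 2 old ad libitum mice in the fit, whose deviations mirror each other, this says little about a shared batch. With the replicate block, the share differences were 0.92, 1.24, 0.13, 0.68 and 1.17 (exact permutation, adjusted p = 0.833 to 1), in the same direction, and 0 genes were called between groups. With 5 to 38 nuclei per mouse in the fits between groups, depth limited which genes could be tested, and 1404 passed the filter on low counts.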

Other observations

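Bank1, a scaffold protein of B cell receptor signalling, was not among the genes of largest fold but was found in 84.6% of the macrophages, 39.9% of microglia and 0.457% of granule nuclei, while Cd79a, Cd79b and Pax5 were at 0. It was higher than in microglia in 10 of 10 mice (log2 fold 1.27 ± 0.17, edgeR adjusted p = 1.62e-06). The phagocytic receptor Timd4 had 25 UMIs in 17 macrophage nuclei and 0 in microglia (at least 33.1-fold higher), in 6 of 10 mice, and was chosen after its values were seen.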
